A study of Mus musculus with 2 samples.

Results

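The mitochondrial ribosomal proteins were described in the interscapular depot of brown fat (iBAT), a tissue that burns fuel to produce heat. Their genes were taken by name alone, as every gene whose symbol consists of Mrpl or Mrps, a number and at most 1 further letter. This rule found 78 of the 27179 genes listed, 49 with a large-subunit symbol (Mrpl) and 29 with a small-subunit symbol (Mrps). The tissue came from untreated C57BL/6N mice of 20 days, described as male, that were either wild-type or carried a Ucp1 knockout on both alleles (Ucp1-KO). Each genotype was represented by 1 library of poly-A-enriched RNA, made from the pooled tissue of 3 animals. A difference between the genotypes is therefore a difference between 2 libraries, without a check against the spread between animals and without a p-value. The construction of the knockout allele is not given in the sources used here, nor is any restriction of it to a cell type.

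Mitochondrial ribosomes translate the few mRNAs that mitochondrial DNA encodes, all of them for subunits of the respiratory chain and ATP synthase. Their ribosomal RNAs also come from mitochondrial DNA, whereas all of their proteins are encoded in the nucleus, made in the cytosol and imported. The large subunit forms the peptide bond and the small subunit reads the mRNA. Part of the proteins have counterparts in the bacterial ribosome, and the rest are specific to mitochondria. Brown adipocytes are rich in mitochondria and in the respiratory chain these ribosomes help to build.

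The members lie on 17 different autosomes and none on a sex chromosome. A region of 300 bases around each start site, from 250 bases before it to 50 after it, was searched on both strands for short core motifs of factors known from nuclear genes of mitochondrial proteins. Positions and sequences are those of the mouse genome GRCm39 with the canonical transcripts of GENCODE release M39. The core of nuclear respiratory factor 1 (NRF1), CGCATGCG, was present in 5 of 78 members (6.41%) and in 2.42% of the 20665 protein-coding genes. For the ETS core bound by GABP, CCGGAAG, these shares were 30.8% and 10.4%, and for the YY1 core, AAGATGGCG, 5.13% and 1.35%. The E-box CACGTG, a site of MYC, was found in 6.41% of members against 7.97% of all genes. Among the 13825 of these genes that were expressed highly enough to be examined, the shares were 3.17% for the NRF1, 14.2% for the ETS, 1.93% for the YY1 core and 9.74% for the E-box. Each motif was counted apart from the others, and a match is a match of letters only. The members with an NRF1 core are shown to display the letters that members of both subunits share, with up to 10 bases on either side and the core in capitals. They lie at chr11:96932263-96932290 (plus strand), chr11:58062448-58062475 (plus), chr13:14787701-14787718 (minus), chr3:94350606-94350633 (plus) and chr17:36227539-36227566 (minus).
Mrpl10: cccagctccaCGCATGCGcatagcggcc
Mrpl22: cctcggactgCGCATGCGtatagtcagc
Mrpl32: ttgacccttgCGCATGCG
Mrpl9: ggcgcagctgCGCATGCGcggggtcctt
Mrps18b: aacggcccgaCGCATGCGcactgggagc

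The YY1 core stood in 4 members, again of both subunits, and the same flanks are printed with the core, on either strand, in capitals. The regions are chr13:73479087-73479115 (plus), chr10:95337769-95337794 (minus), chr7:78432761-78432789 (plus) and chr17:46421931-46421958 (plus).
Mrpl36: cgtgaccttaCGCCATCTTtcttcctggc
Mrpl42: agattgaagcAAGATGGCGagcgcgc
Mrps11: ctacgggcgcCGCCATCTTtctgtcttcc
Mrps18a: ggtgcgttccAAGATGGCGgccctcagg

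Many members start back to back with another gene. A neighbor was a protein-coding gene on the other strand that started within 1000 bases upstream, or overlapped head-to-head by up to 200 bases. This held for 6.30% of all protein-coding genes listed, including those too weakly expressed to be examined. The share among examined genes alone was not computed. Of the members, 20 of 78 (25.6%) had such a neighbor. In one such case both neighbors are members and one belongs to each subunit. Mrps11 and Mrpl46 start 30 bases apart on chromosome 7. The region searched for Mrps11, which holds both starts, is printed on its strand with the YY1 core in capitals (chr7:78432617-78432916). This core lies outside the region searched for Mrpl46, in which no YY1 core was found.
Mrps11: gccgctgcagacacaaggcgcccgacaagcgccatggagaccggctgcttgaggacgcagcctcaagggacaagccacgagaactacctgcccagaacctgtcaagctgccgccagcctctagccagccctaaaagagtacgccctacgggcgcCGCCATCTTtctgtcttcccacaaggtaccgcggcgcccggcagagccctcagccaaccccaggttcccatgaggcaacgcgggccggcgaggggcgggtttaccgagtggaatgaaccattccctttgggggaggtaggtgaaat

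The wild-type library held 52950913 counts and the Ucp1-KO library 53216727. Ucp1, which encodes the uncoupling protein itself, had 366473 and 37853 counts, which left 12.7% of the wild-type level after normalization. A set of 4 genes on the Y chromosome (Kdm5d, Eif2s3y, Ddx3y, Uty) summed to 0 wild-type and 5305 Ucp1-KO counts, and Xist, made from an inactive X chromosome, had 32380 and 16478. Both libraries therefore held transcripts that go against a description as male only, and genotype and sex cannot be told apart. Of the 12 brown adipocyte markers, 9 were higher and 3 lower beyond counting error, Ucp1 among the lower, with a median log2 ratio of 0.53. Their summed share of counts, of which Ucp1 is a large part, was 1.858% and 1.282%. Each of the 16 skeletal muscle markers was past 2-fold on the lower side in Ucp1-KO, and their summed share of counts was 0.641% in wild-type against 0.0771% in Ucp1-KO. Of the 8 endothelial markers 7 were lower, with 0.214% and 0.106% of the counts. Of the 8 macrophage markers 5 were higher and 1 lower beyond counting error, 3 of them past 2-fold upward, with a median log2 ratio of 0.53 and 0.0103% and 0.0114% of the counts. The part of these differences in the values below was not tested, and in whole tissue fewer cells of a type and less RNA per cell cannot be told apart.

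To see whether the proteins of the mitochondrial ribosome followed the loss of Ucp1, their levels were compared between the libraries. Their mRNAs were close to equal. The 78 genes together summed to 234750 wild-type and 191184 Ucp1-KO counts, which is 0.443% and 0.359% of all counts. Normalized counts were obtained with median-of-ratios size factors, and the log2 ratio is log2((Ucp1-KO + 0.5)/(wild-type + 0.5)) of normalized counts. On this scale the summed level differed by 0.003 (95% counting interval -0.009 to 0.016). The 77 members with a mean normalized count of at least 10 had a median log2 ratio of 0.003, next to -0.002 for all 15212 genes examined, with 40 members above and 37 below 0.

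None of the 77 members differed by 2-fold or more. For comparison, 7.42% of all examined genes passed 2-fold upward in Ucp1-KO and 9.55% passed it downward. As few members were weakly expressed, they were also set beside the 10059 genes within their own range of mean normalized counts (169.1 to 7987.0), of which 7.96% passed 2-fold in either direction. With a limit of 1.5-fold 2 members passed, Mrps15 and Mrpl40, against 33.7% of all genes and 23.4% of those in the same range. The standard deviation of the log2 ratio was 0.22 among members and 0.66 among genes of that range. The middle of the distribution was likewise narrower, with quartiles of -0.13 and 0.14 for members and -0.29 and 0.30 for the others.

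**Figure D1:**
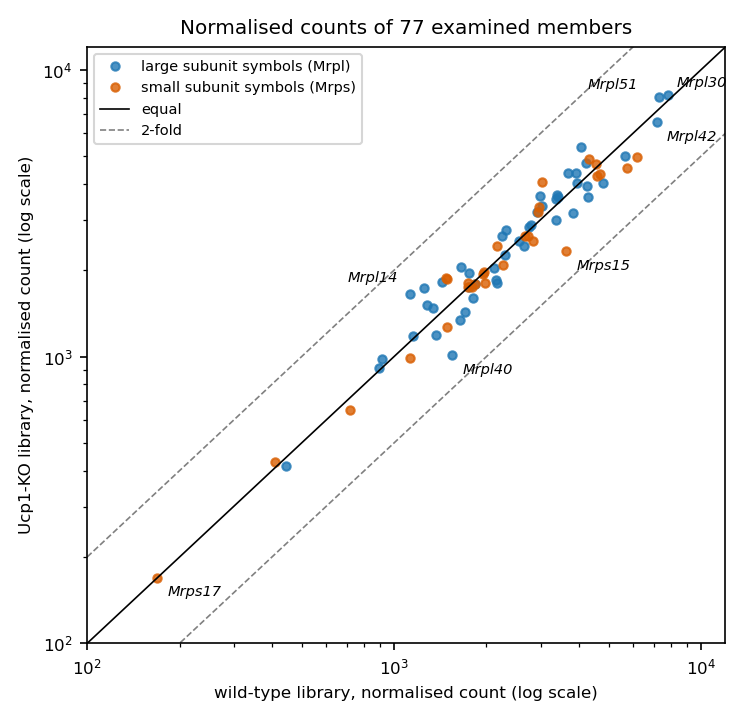
Normalized counts of the 77 examined members in the wild-type library (horizontal, log scale) and the Ucp1-KO library (vertical, log scale), 1 point per gene, blue for Mrpl and orange for Mrps. The solid line marks equality and the dashed lines a 2-fold difference, and every point lies between the dashed lines, from Mrps17 at 168.6 and 169.7 to Mrpl30 at 7822.9 and 8151.0.

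Small differences were nonetheless resolved by the depth of the data. The 95% counting interval of the ratio, an exact conditional binomial interval on read pairs, lay above 0 for 24 members (31.2%) and below 0 for 23 (29.9%), and it included 0 for the other 30. Over all genes these shares were 31.5% and 30.6%, and over genes in the members' range of counts 35.1% and 33.4%. The shares among members were thus near those of the other genes. These intervals cover counting error only and not the spread between animals. Copies of a molecule made by PCR could not be recognized, so the intervals may be too narrow even for counting error.

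The statement of near-equal levels is relative to other genes. Mitochondrially encoded mRNAs and ribosomal RNAs made up 22.4% of the wild-type counts but 36.7% in Ucp1-KO, and when total counts were used for scaling all log2 ratios shifted by -0.31. The members moved with it, to a median of -0.30. With total counts 62 members were lower and 4 higher beyond counting error, and again 0 reached 2-fold. When the mitochondrially encoded transcripts were left out of the totals, the median was -0.010.

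The large and the small subunit were compared next. For the 48 examined Mrpl genes the median log2 ratio was 0.034, with quartiles of -0.14 and 0.15, and the 29 Mrps genes had -0.028 with quartiles of -0.13 and 0.069. The difference of the medians, large minus small, was 0.062. As sums, the Mrpl genes differed by 0.029 (0.014 to 0.045) and the Mrps genes by -0.045 (-0.065 to -0.024). The sums, but not the ranges of the genes, were thus apart beyond counting error. Mrps15, the lowest member, gave 4028 and 2102 of the 83455 and 65740 Mrps counts, and the sum without it was not tested. The Mrpl genes ranged from -0.62 for Mrpl40 to 0.55 for Mrpl14 and the Mrps genes from -0.64 for Mrps15 to 0.41 for Mrps9, which is nearly the same span. Among Mrpl genes 17 (35.4%) were higher and 15 (31.2%) lower beyond counting error, and among Mrps genes 7 (24.1%) and 8 (27.6%). Over all examined genes these shares were 31.5% and 30.6%, so that nothing is read from these counts.

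**Figure D2:**
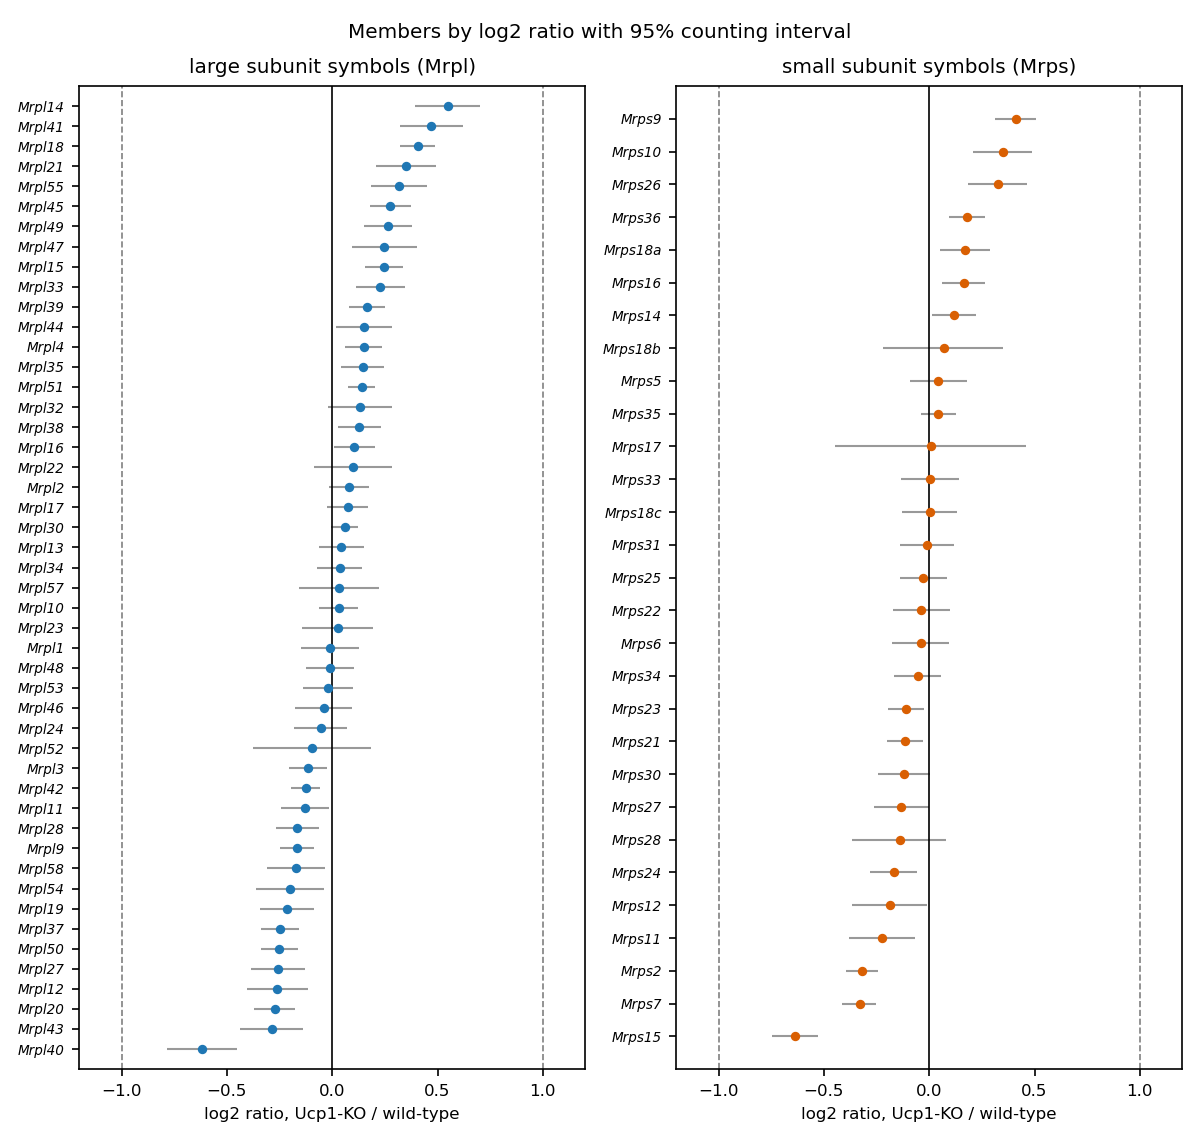
Log2 ratio of Ucp1-KO over wild-type for each of the 77 examined members, ordered by value, with large-subunit symbols on the left and small-subunit symbols on the right. Points are single-library ratios, bars their 95% counting intervals, and dashed lines mark 2-fold; both panels center near 0, and Mrps15 and Mrpl40 stand below the rest.

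A symbol does not always name the particle. The proteins of Mrps30 (mL65 in the common nomenclature of ribosomal proteins) and Mrps18a (mL66) sit in the large subunit, and that of Mrps36 belongs to the 2-oxoglutarate dehydrogenase complex and not to the ribosome. For Mrps30, with 2512 and 1879 counts, the log2 ratio was -0.12 (-0.24 to 0.003). Mrps18a had 2396 and 2191, a ratio of 0.17 (0.050 to 0.29), and Mrps36 had 4794 and 4415, a ratio of 0.18 (0.096 to 0.27). With these genes placed by particle the medians were 0.034 for 50 large-subunit and -0.033 for 26 small-subunit members, a difference of 0.068.

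Mrps18a has a pair of relatives in the small subunit, Mrps18b (mS40) and Mrps18c (bS18m). Mrps18b had 454 and 387 counts, or a log2 ratio of 0.069 (-0.22 to 0.35), and Mrps18c had 2180 and 1774, a ratio of 0.002 (-0.13 to 0.13). All 3 paralogs were within 0.2 of 0, and only Mrps18a was beyond counting error. Of each of the 3 genes more than 50% of the exon bases of the canonical transcript also lie in other annotated genes, so their counts are uncertain.

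Proteins with and without a bacterial counterpart gave like values. The median log2 ratio was 0.030 for the 45 examined members with a counterpart, and for the 31 mitochondria-specific ones it was -0.021. Within the small subunit the 10 mitochondria-specific members ran from -0.13 for Mrps27 to 0.32 for Mrps26 (standard deviation 0.13), and 8 of 10 were inside counting error. The 16 small-subunit members with a counterpart had a median of -0.078 and a standard deviation of 0.26, and 5 of them were inside counting error. Over all examined genes 5765 of 15212 were inside it, and over all members 30 of 77. Nothing is read from these counts in groups this small.

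Single members were then followed at both ends of the range, among those with a mean normalized count of at least 100. The lowest was Mrps15 (uS15m, Entrez gene 66407), the relative of a bacterial protein that binds the small ribosomal RNA early in assembly, on chromosome 4 from 125940711 to 125950292 on the plus strand. Its 4028 wild-type and 2102 Ucp1-KO counts became 3630.7 and 2332.0 after normalization, so that 64.2% of the wild-type level remained in Ucp1-KO. On the log2 scale this was -0.64 (-0.75 to -0.53). Mrpl40 (mL40, Entrez gene 18100; chromosome 16, 18690767 to 18696113, minus strand), of the central protuberance of the large subunit, had 1716 and 909 counts and a log2 ratio of -0.62 (-0.79 to -0.45). Leaving Mrpl36 aside, the intervals of both genes lay below the values of all other members.

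A wider step separated them from the next. Mrps7 (uS7m) had 6351 and 4101 counts, giving a log2 ratio of -0.33 (-0.41 to -0.25). Mrps2 (uS2m) had 6887 and 4487, a ratio of -0.32 (-0.40 to -0.24). Both encode small-subunit proteins with bacterial counterparts, and 70.2% of the exon bases of Mrps7 also lie in other genes. Mrpl43 (mL43) had 1823 and 1213 counts and a ratio of -0.29 (-0.44 to -0.14), and Mrpl20 (bL20m) had 4257 and 2863 and a ratio of -0.27 (-0.37 to -0.18).

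At the upper end stood Mrpl14 (uL14m, Entrez gene 68463; chromosome 17, 45996373 to 46010480, plus strand), whose protein lies where the large subunit meets the small one. Its 1252 wild-type and 1487 Ucp1-KO counts were 1128.5 and 1649.7 after normalization, and its log2 ratio was 0.55 (0.39 to 0.70). Mrpl41 (mL41; chromosome 2, 24862319 to 24865956, minus strand) followed with 1391 and 1566 counts and a ratio of 0.47 (0.32 to 0.62). A copy of its transcript of at least 90% identity lies elsewhere in the genome, as for Mrpl18, Mrpl21 and Mrps10 below, so reads of gene and copy may mix.

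Mrps9 (uS9m), of the small-subunit head, had 3374 and 3645 counts and a log2 ratio of 0.41 (0.31 to 0.51). Mrpl18 (uL18m) had 4511 and 4854, a ratio of 0.40 (0.32 to 0.49), Mrpl21 (bL21m) had 1584 and 1642, a ratio of 0.35 (0.21 to 0.49), and Mrps10 (uS10m) had 1640 and 1698, a ratio of 0.35 (0.21 to 0.49). These 6 members were higher beyond counting error with median-of-ratios scaling. The lowest and the highest 6 held members of both subunits, 3 Mrps genes among the lowest and 2 among the highest.

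Members with a known special role followed no common direction. The stalk of the large subunit, which recruits translation factors, is formed with Mrpl10, Mrpl11 and Mrpl12. Mrpl10 had 4372 and 3626 counts, or a log2 ratio of 0.030 (-0.061 to 0.12), and Mrpl11 had 2947 and 2191, a ratio of -0.13 (-0.24 to -0.014). Mrpl12, whose protein also binds the mitochondrial RNA polymerase, had 1892 and 1284 counts and the lowest ratio of these, -0.26 (-0.41 to -0.11). Of the exon bases of Mrpl10, 57.5% also lie in another gene. Mrpl45, of the membrane-facing side at the exit of the nascent chain, had 3323 and 3269 counts, a ratio of 0.28 (0.18 to 0.37). Mrpl44, with a fold of the RNase III family, had 1946 and 1756, a ratio of 0.15 (0.018 to 0.28), and Mrpl58, a peptidyl-tRNA hydrolase built into the ribosome, had 2004 and 1446, a ratio of -0.17 (-0.31 to -0.032).

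Neighbors within the ribosome were also compared, in groups drawn up after the values had been seen. The central protuberance, the crest of the large subunit, holds the products of Mrpl40 and Mrpl18, with log2 ratios of -0.62 and 0.40 near both ends of the range. Of its other proteins, Mrpl27 (bL27m, 2400 and 1632 counts) was at -0.26 (-0.39 to -0.13) and Mrpl55 (bL31m, 1833 and 1854 counts) at 0.32 (0.18 to 0.45), whereas Mrpl46 (mL46) and Mrpl48 (mL48) were within counting error of 0 at -0.041 and -0.010. Mrpl38 (mL38, 3230 and 2870 counts) was at 0.13 (0.026 to 0.23), and Mrpl58, described above, was at -0.17. A copy of Mrpl27 lies elsewhere in the genome.

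Other groups of this kind were the exit of the peptide tunnel and the small-subunit sites that hold the mRNA. At the tunnel exit Mrpl22 (uL22m), Mrpl23 (uL23m), Mrpl24 (uL24m) and Mrpl17 (bL17m) had ratios of 0.097, 0.027, -0.054 and 0.074, all within counting error. Copies of Mrpl22 and Mrpl23 lie elsewhere in the genome, and 70.5% of the exon bases of Mrpl24 also lie in another gene. Mrpl47 (uL29m, 1415 and 1365 counts) was higher at 0.25 (0.094 to 0.40), as was Mrpl45. On the small subunit, Mrps12 (uS12m), of the decoding center, had 1252 and 893 counts and was at -0.19 (-0.37 to -0.012). Mrps24 (uS3m, 3142 and 2271 counts) and Mrps5 (uS5m, 1935 and 1621 counts), where the mRNA enters, were at -0.17 (-0.28 to -0.058) and 0.044 (-0.092 to 0.18).

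Levels differed far more between members than between the libraries. Per 1000 bases of canonical transcript the wild-type normalized count had a median of 1232 over the 77 examined members and ran from 28.6 for Mrps17 to 9251 for Mrpl42, a 323-fold range. Mrps21 (8463), Mrpl20 (5022), Mrpl34 (4263) and Mrps36 (3865) came next below Mrpl42, and above Mrps17 followed Mrpl52 (246.3), Mrps28 (247.7), Mrpl57 (308.2) and Mrps18b (317.7). The canonical transcript of Mrps17 is long, with 5894 bases, and copies of Mrpl42, Mrps36 and Mrps18b lie elsewhere in the genome. Of the exon bases of Mrpl34, 82.0% also lie in another gene. The order depended in part on the length used. When the median length of all coding transcripts of a gene replaced the canonical length, Mrpl42 and Mrps21 changed places, Mrps36 became the 6th highest, and Mrpl52 moved from 246.3 to 398.7 and became the 8th lowest. The per-length levels in Ucp1-KO were 8479 for Mrpl42 and 28.8 for Mrps17, at the same ends of the order. The median per-length level was 1251 for Mrpl and 1150 for Mrps in wild-type, and 1488 and 1225 in Ucp1-KO.

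**Figure D3:**
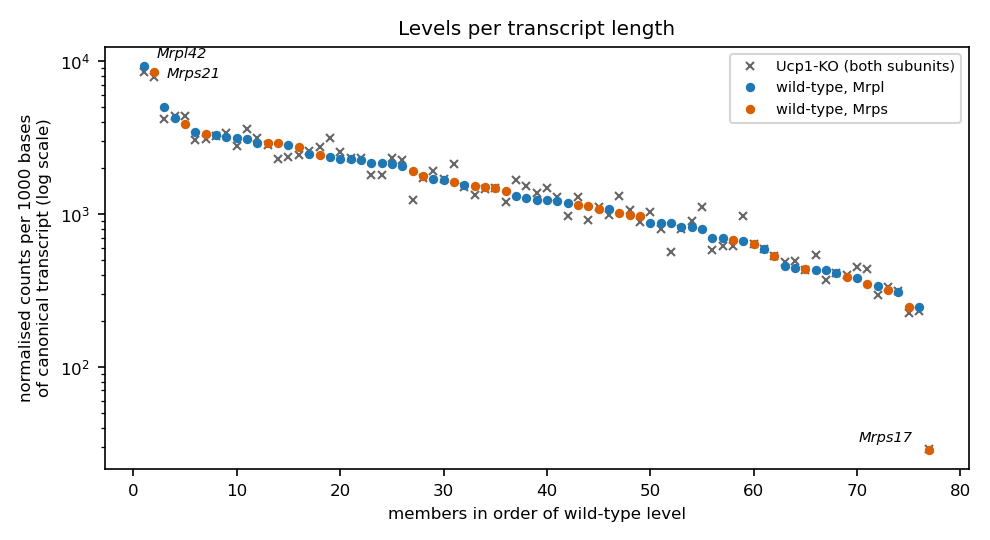
Normalized counts per 1000 bases of canonical transcript (log scale) for the 77 examined members in order of their wild-type level, circles for wild-type (blue for Mrpl, orange for Mrps) and crosses for Ucp1-KO. Mrpl and Mrps genes mix along the order, the crosses follow the circles closely, and Mrps17 lies apart at 28.6.

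One member was too low to compare. Mrpl36 (bL36m) had 3 and 2 counts, below the 6 counts (3 read pairs) taken as the limit of detection, and its counting interval of -6.00 to 6.59 gives no direction. Mrps17 (uS17m), the lowest of the examined members, had 187 and 153 counts, giving a log2 ratio of 0.010 (-0.45 to 0.46). A ratio within that interval could not have been resolved for Mrps17 at this depth.

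The other ribosomal proteins of the particle, which carry unrelated symbols, were also near 0. Dap3 (mS29) had 4696 and 3978 counts with a log2 ratio of 0.060, Ptcd3 (mS39) 4994 and 4079 with 0.008, Chchd1 (mS37) 2067 and 1732 with 0.045, and Aurkaip1 (mS38) 3928 and 2972 with -0.10. Gadd45gip1 (mL64) had 937 and 664 with -0.20. The interval left out 0 for Aurkaip1 alone (-0.20 to -0.005).

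Genes that act on the mitochondrial ribosome spread more widely than its proteins, whose log2 ratios had a standard deviation of 0.22. Of 27 genes of assembly and ribosomal RNA modification, 10 (37%) were higher and 8 (29.6%) lower beyond counting error. These shares were near the 31.5% and 30.6% of all examined genes. Their median log2 ratio was 0.010 and the standard deviation 0.37, below the 0.66 of genes in the members' range of counts. Their counting intervals were also wider than those of the members, with a median half-width of 0.177 against 0.116. Mpv17l2, required for assembly, had 2703 and 1210 counts, a ratio of -0.86 (-1.0 to -0.72). Rbfa, which matures the small subunit, had 524 and 643, a ratio of 0.59 (0.35 to 0.83), and the ribosomal RNA methyltransferase gene Tfb1m had 310 and 171, a ratio of -0.56 (-0.97 to -0.18). Malsu1, chosen after its value was seen because its protein binds that of Mrpl14, had 827 and 919 counts and a ratio of 0.45 (0.26 to 0.65).

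Of 16 translation factors and activators, 4 (25%) were higher and 6 (37.5%) lower beyond counting error, beside 31.5% and 30.6% of all examined genes. Their median was -0.057 and the standard deviation 0.28. The ribosome recycling factor gene Mrrf had 1767 and 938 counts and a log2 ratio of -0.61 (-0.78 to -0.45). Initiation factor gene Mtif3 had 1018 and 565, a ratio of -0.55 (-0.77 to -0.34), and release factor gene Mtrf1l had 629 and 388, a ratio of -0.40 (-0.66 to -0.13). None of the genes in these lists reached 2-fold.

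In contrast, part of the regulators of nuclear genes for mitochondria differed strongly. Ppargc1a, a coactivator of mitochondrial biogenesis, had 4105 and 12332 counts, a 3.70-fold higher level and a log2 ratio of 1.89 (1.82 to 1.96). Myc had 244 and 703, a ratio of 1.82 (1.52 to 2.13), and the coactivator gene Pprc1 had 759 and 1542, a ratio of 1.32 (1.15 to 1.5). These were the only 3 of 11 genes of the list past 2-fold. Over all examined genes, 7.42% passed it upward and 9.55% downward. Apart from Myc, the DNA-binding factors whose motifs were searched above were nearer to 0. The log2 ratio was 0.14 for Nrf1 (-0.075 to 0.35), -0.056 for Gabpa (-0.15 to 0.036) and 0.17 for Yy1 (0.061 to 0.29).

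Log2 ratios were then set out by motif, as a description. The median was 0.069 for those with an NRF1 core and -0.003 for those without. It was -0.016 and 0.027 for the ETS core, -0.13 and 0.007 for the YY1 core, where only 3 members with the core were examined, and 0.041 and 0.003 for the E-box. Of the genes printed above, Mrpl10 (0.030), Mrpl22 (0.097), Mrpl32 (0.13) and Mrps18b (0.069) were inside counting error, whereas Mrpl9 (-0.17) was lower beyond it.

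The RNA components of the same ribosome stood apart from its proteins. The small-subunit ribosomal RNA mt-Rnr1 had 167053 wild-type and 1386284 Ucp1-KO counts, with a log2 ratio of 3.35 (3.34 to 3.36). The large-subunit mt-Rnr2 had 366556 and 1809408, a ratio of 2.60 (2.60 to 2.61). The 13 mRNAs that mitochondrial ribosomes translate were all higher with median-of-ratios scaling, with a median of 0.96, but the lowest of them, ND1 at 0.25, differed by less than the shift that total counts bring. The libraries were enriched for poly-A RNA, and the part of this step in the ribosomal RNA levels was not tested.

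**Figure D4:**
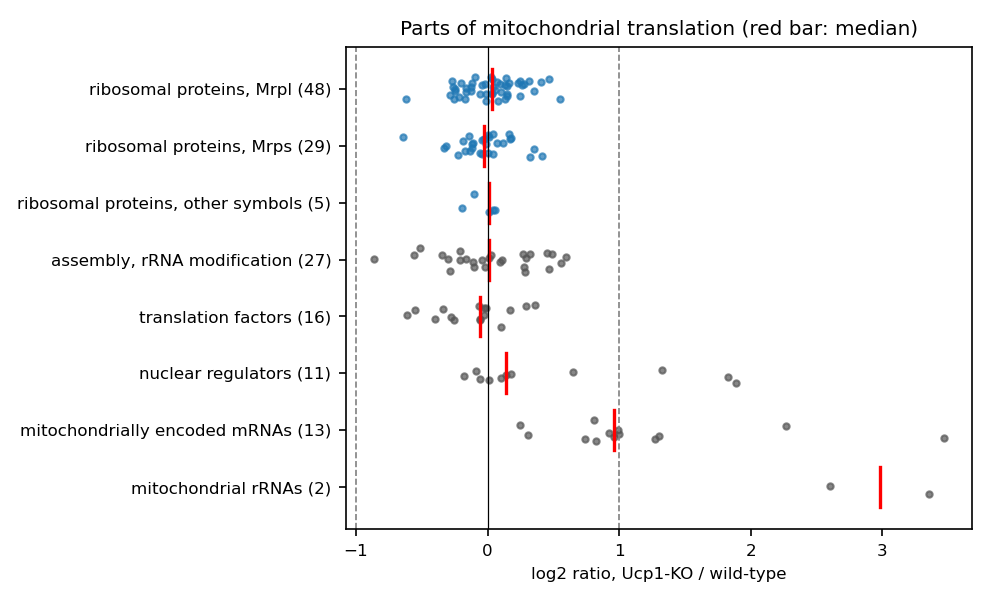
Log2 ratio of Ucp1-KO over wild-type for genes of mitochondrial translation, 1 point per gene and a red bar at each median, with the number of genes in brackets and dashed lines at 2-fold. Ribosomal proteins (blue) cluster near 0, with medians of 0.034, -0.028 and 0.008, whereas 3 nuclear regulators, 4 of the mitochondrially encoded mRNAs and both mitochondrial rRNAs lie beyond 1.

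Cytosolic ribosomal proteins and nuclear subunits of the respiratory chain were set beside the members. The 76 examined cytosolic ribosomal proteins had a median log2 ratio of 0.25, with 69 above 0, and a standard deviation of 0.18. Of them 63 (82.9%) were higher and 3 (3.95%) lower beyond counting error, beside 31.5% and 30.6% of all examined genes. Their counting intervals were narrower, with a median half-width of 0.061 against 0.116 for members and 0.222 for all examined genes. With total counts the median of the cytosolic ribosomal proteins was -0.060, so the sign depended on the scaling. The members, at -0.30, lay about as far below them as before. The 79 examined respiratory chain subunits had a median of 0.014, and quartiles of -0.15 and 0.21, close to those of the members. Their standard deviation was larger, 0.53, with 3 subunits past 2-fold. The lowest was Cox6a2, the heart and muscle form of a cytochrome c oxidase subunit, at -2.12, and the highest was Cox7a2 at 3.45. A narrow middle of the distribution was therefore not particular to the mitochondrial ribosome.

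**Figure D5:**
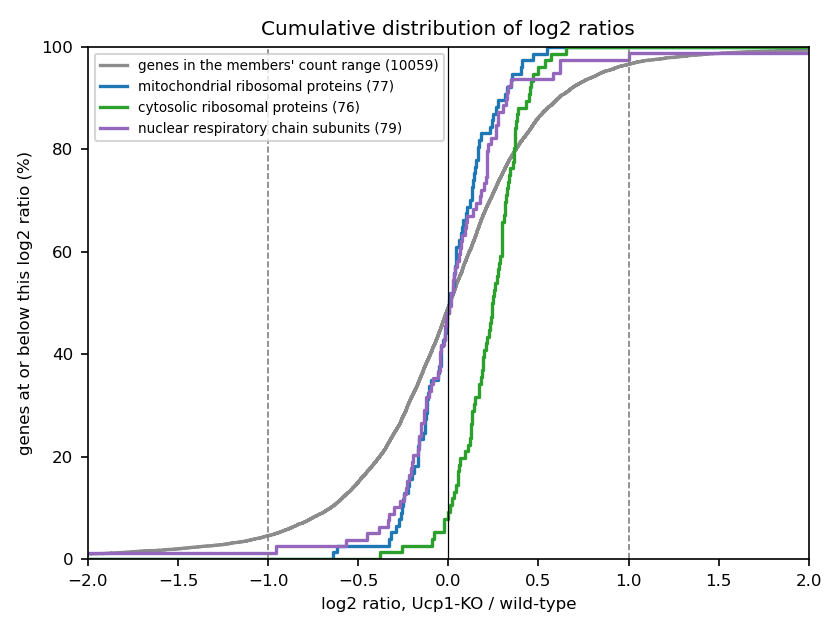
Cumulative share of genes (vertical, %) at or below each log2 ratio (horizontal) for 77 mitochondrial ribosomal proteins (blue), 76 cytosolic ribosomal proteins (green), 79 nuclear respiratory chain subunits (purple) and the 10059 genes in the members' range of mean normalized counts (gray). Dashed lines mark 2-fold, the axis ends at a log2 ratio of 2 in size, and the blue curve rises between -0.64 and 0.55, steeper than the gray one, with the green one shifted to the right.

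Neighbors that share a start region with a member were described in the same way. Of the 18 examined non-member neighbors 2 passed 2-fold, 1 upward and 1 downward, beside the shares of 7.42% and 9.55% of all examined genes given above, so that nothing is read from this count. Their median log2 ratio was 0.036. Ncapd2, 44 bases from the start of Mrpl51, had a ratio of -1.27 (-1.50 to -1.05), whereas Mrpl51 had 8081 and 7229 counts and a ratio of 0.14. Lrrc46, beside Mrpl10, had only 6 and 52 counts and a ratio of 3.30 (1.71 to 5.78). Pairs above 0, each gene beyond counting error, were Mrpl14 (0.55) with Tmem63b (0.72) and Mrpl49 (0.26) with the ribosomal protein gene Fau (0.18). Below 0 in the same way were Mrpl43 (-0.29) with Twnk (-0.48) and Mrps12 (-0.19) with Sars2 (-0.38). Mrpl32 (0.13), itself inside counting error, was on the same side as the proteasome gene Psma2 (0.17). Pairs on opposite sides, each gene beyond counting error, were Mrpl41 (0.47) with Pnpla7 (-0.31), Mrpl47 (0.25) with the complex I subunit gene Ndufb5 (-0.11), Mrpl54 (-0.20) with Apba3 (0.22) and Mrpl51 with Ncapd2. Mrps11 and Mrpl46, with the region around both starts printed above, had ratios of -0.22 and -0.041. Their counting intervals overlapped (-0.38 to -0.067 and -0.18 to 0.094). Of the canonical exon bases, 27.5% of Mrpl43 also lie in Twnk, 6.2% of Mrpl14 in Tmem63b and 16.4% of Mrps11 in Mrpl46. For Mrpl47 18.3% also lie in Actl6a or Ndufb5, and for Mrpl54 93.9% also lie in Matk. Reads of overlapping genes may mix, as the strand setting of the counting is not known.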

How the data were processed

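Library preparation was strand specific with poly-A enrichment. The deposited values are whole-number counts per gene that the authors made with featureCounts. The submitters' notes name Trim Galore, HISAT2 and mm39. Versions, annotation, strand and multi-mapping settings are not given in the sources used here, so genes with overlapping exons or near-identical copies are uncertain. Of the genes listed, 1319 had no symbol and were kept.

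Counts were divided by DESeq2 1.42.0 size factors (R 4.3.3), 1.11 for wild-type and 0.901 for Ucp1-KO. Among genes with 1 to 10 counts, 70.7% (wild-type) and 73.4% (Ucp1-KO) had even counts, as when both mates are counted. Among genes with 100 to 1000 counts these shares were 49.9% and 50.2%. Because of the shares at low counts, counting intervals (95%, Clopper-Pearson, scipy) used counts divided by 2, a choice made after the counts had been seen. Genes with a mean normalized count of at least 10 were examined. With 1 library per genotype no replicate test was possible, and the count model planned for replicated counts was not run. edgeR 4.0.16 gave TMM factors for an alternative. Copies were sought with minimap2 (at least 50% of the length at 90% identity). Interval code was tested on simulated counts that were even by construction, so this checked the code and not the choice to divide by 2.

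The members, lists and rules were chosen with earlier results of these data known. Named were the 6 highest and 6 lowest members at a mean of at least 100, the 5 highest and lowest per length, members at or under 6 counts, members of special role or misleading symbol, the other proteins of the particle, both mitochondrial ribosomal RNAs and up to 3 genes per list. Others named (neighbors, members with a motif or a shared start, structural neighbors, extremes of smaller groups, DNA-binding factors, ND1 and Malsu1) were chosen after their values were seen. Alternatives covered scaling, filter, pseudocount, size rule, interval unit, length and expression trends, and subunit assignment.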

Additional observations from a re-analysis of the deposited data

How the results depend on the processing

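No paired analysis was possible because a single library stood for each genotype, which also left none to leave out in turn. Of 72 values under 14 alternative settings, 63 were within set limits of the main value, which were 0.116 for a median (the median half-width of 1 member's counting interval, a wide limit for a median) and 1.5 times for a count. Members beyond counting error were 66 with total counts and 53 with counts as deposited, in place of 47. With total counts the median was -0.304 for all members, -0.273 for Mrpl and -0.335 for Mrps, the sum was -0.303, and 4 members were higher and 62 lower beyond counting error in place of 24 and 23. The median of all examined genes was then -0.308, with the members 0.004 above it, but a change of scaling shifts all log2 ratios nearly alike. With mitochondrially encoded transcripts left out of the totals the sum was -0.009. The size rule gave 2 members at 1.5-fold and 47 where an interval beyond 0 was the rule, in place of 0, since both rules are looser by construction. With TMM factors the median was -0.008, and the sign of a median this near 0 carries no direction. With the trend on mean expression removed, Mrpl was at -0.015. The difference between the subunits ran from 0.046 to 0.076. A change of scaling could not alter it, so its values under other scalings, counted among the 63, are no check. The limit of 0.116 is also wider than the main difference of 0.062. Leaving out members with a copy elsewhere or with 50% or more of their exon bases in other genes, both chosen after seeing the data, left 66 members each and medians of -0.010 and 0.018. Depth limits Mrpl36, Mrps17 and Mrps18b, whose intervals are wide.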

Other observations

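Exon overlap and copies were looked at because the counting settings are not known. The 11 members with at least 50% of their canonical exon bases inside other annotated genes had a median log2 ratio of -0.028. Of these, 8 were inside counting error, beside 30 of all 77 examined members and 5765 of all 15212 examined genes. The 27 members without any such overlap, of which 26 were examined, had a median of 0.018. The 11 members with a copy elsewhere in the genome had a median of 0.097, with 9 above 0, and the 66 examined members without one had -0.010.

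The nuclear and mitochondrial RNAs of the same ribosome were at different proportions in the libraries. The summed members held 0.443% and 0.359% of all counts, and the ribosomal RNAs 1.01% and 6.01%, in wild-type and Ucp1-KO. Cytosolic ribosomal proteins held 1.49% and 1.42%.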
